A study of Mus musculus with 45 samples.

Results

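The response to loss of extracellular cysteine was compared between LM1, a mouse mammary tumour line recovered from lung, and Myc310, the line from which it descends. The 12 libraries of this comparison, of 45 in the series, are 3 cultures of each line in control medium and 3 of each line after 6 h in medium without cysteine and cystine. Myc310 was established from a tumour of the MMTV-cMYC mouse model, in which a mammary tumour virus promoter drives Myc in the mammary epithelium, and LM1 was isolated from lungs after Myc310 cells had been placed in the mammary fat pad. All groups therefore descend from 1 transgenic tumour, and all were seeded at 250000 cells per well and grown for 24 h before the medium was changed. Each line is a single line, so passage through the lung and the descent of LM1 in particular cannot be told apart. The submitters call the 3 cultures technical replicates and give no biological replicate for Myc310. The study elsewhere speaks of biological as well as technical replicates for the deprivation experiment, without tying them to libraries, so the p-values below measure the spread between cultures of a line, which may be technical only. Polyadenylated RNA was sequenced, and the deposited values are counts per gene, which summed to between 19521444 and 25032513 per library over the 12 libraries.

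Cysteine is the limiting amino acid for the synthesis of glutathione, the main thiol antioxidant of the cell, and most cultured tumour cells take it up as cystine through xCT, the transporter that Slc7a11 encodes together with its heavy chain Slc3a2. When an amino acid runs short, the kinase GCN2 phosphorylates the translation factor eIF2, general translation slows, and the transcription factor ATF4 is translated. ATF4 and its C/EBP partners then raise genes for amino acid uptake, amino acid synthesis and tRNA charging, a programme known as the integrated stress response (ISR). NRF2, which responds to oxidants, raises Slc7a11 as well, together with genes for glutathione synthesis and heme breakdown.

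The question the comparison addresses is whether the line from lung answered the shortage differently from its parent. For each gene the response is the log2 level in deprived medium minus that in control medium, and the quantity tested is the response of LM1 minus the response of Myc310, called the difference of responses here. A positive difference means that the gene rose more, or fell less, in LM1 on the log2 scale, which need not hold for the change in CPM. Levels are CPM, which are counts relative to library size after TMM scaling, and the test is the quasi-likelihood F-test of edgeR, with p-values adjusted by the Benjamini-Hochberg method over all 13400 genes tested and a threshold of 0.05.

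The luminal keratins Krt8, Krt18 and Krt19 carried the epithelial signal of both lines, and the summed luminal markers ranged from 1096 to 1615 CPM over the 12 libraries. Of the 10 luminal markers, 7 were at the floor of 3 counts per library, among them Epcam and Cdh1, whereas the mesenchymal list, led by Vim, summed to between 3268 and 4381 CPM. Basal markers reached at most 0.55 CPM. Of the cell types a lung isolate could hold, alveolar markers summed to at most 2.45 CPM, and the leukocyte list to 30.5 to 70.8 CPM with Ptprc at the floor. Cd14 and Cd68 carried nearly all of the leukocyte sum, and Cd14 was higher in deprived than in control cultures of both lines. The endothelial list summed to 2.20 to 2.89 CPM in Myc310 and 137 to 177 CPM in LM1, but Eng alone carried it. Fibroblast markers summed to 1.78 to 2.94 CPM in Myc310 and 10.6 to 18.1 CPM in LM1. The part of these marker differences in the results was not tested, and in bulk RNA fewer cells of a type and less RNA per cell cannot be told apart.

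Both lines responded broadly. In LM1, 9524 genes changed (71.1% of those tested, of which 4794 or 35.8% rose and 4730 or 35.3% fell), and in Myc310 8946 genes changed (66.8%, of which 4401 or 32.8% rose and 4545 or 33.9% fell). Changes over 2-fold were found for 2448 genes in LM1 (18.3%) and 1657 in Myc310 (12.4%). The difference of responses passed the threshold for 3278 genes (24.5% of those tested), of which 1943 were higher in LM1 (14.5%) and 1335 lower (9.96%). Most of these differences were small. Their median size was 0.287 on the log2 scale, 2687 were under 0.5, and 131 were over 2-fold (0.978%), with 53 higher (0.396%) and 78 lower (0.582%). The split between directions depended on scaling: with upper-quartile in place of TMM scaling, 1332 genes were higher and 1785 lower, and the median over all genes moved from 0.02 to -0.03. For 2477 of the 3278 genes (18.5% of those tested), every pairing of single cultures gave the same sign of the difference. Such freedom from overlap was found for 23.2% of all genes tested. For 104 of the 3278 genes, among them Hid1 and Vldlr, the difference of the changes in CPM had the opposite sign.

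**Figure D1:**
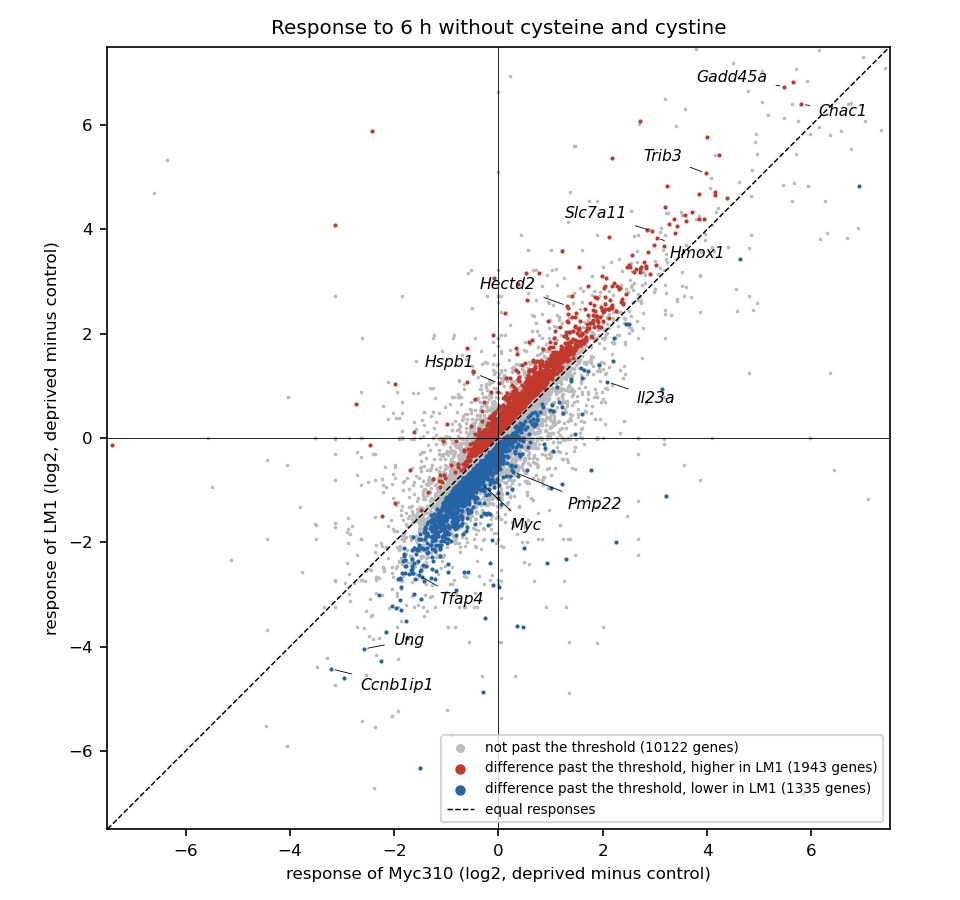
Each point is a gene, with its response in Myc310 on the horizontal axis and in LM1 on the vertical axis (both log2, deprived minus control), and 19 genes beyond 7.5 on either axis are not drawn; colours mark genes whose difference of responses was higher or lower in LM1 (1943 and 1335 of all genes tested, drawn or not), and the dashed line marks equal responses. Genes that rose lie mostly above the line and genes that fell mostly below it.

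Most of these genes moved the same way in both lines and differed in the size of the response. Of the 3278 genes, 1376 (42%) rose in both lines and more so in LM1, and 978 (29.8%) fell in both and more so in LM1. Only 57 rose in both and less in LM1, and 136 fell in both and less in LM1. A further 247 rose and 210 fell past the threshold in LM1 alone, 64 rose and 135 fell past it in Myc310 alone, and 71 moved in opposite directions. Among the 943 genes that rose in both lines with a mean over 2-fold, the median response was 1.65 in LM1 and 1.41 in Myc310, and 745 (79%) rose more in LM1. Among the 814 genes that fell in both lines by a mean over 2-fold, the median response was -1.57 in LM1 and -1.18 in Myc310, and 704 (86.5%) fell more in LM1.

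The media in which the lines themselves differed were then examined. In control medium 4331 genes differed between LM1 and Myc310 (32.3%), and in deprived medium 6954 did (51.9%). Of the 3278 genes with a difference of responses, 1759 (53.7%) differed between lines past the threshold in deprived medium and not in control medium, and 722 (22%) differed in both with the same sign and further apart in deprived medium. For 345 genes (10.5%) the lines differed past the threshold in control medium and not in deprived medium, and for 254 (7.75%) the order of the lines turned over. The 10 genes with the largest positive difference and the 10 with the largest negative difference, among those of sufficient level and without overlap, divided unevenly on this point. Of the 10 positive ones, 7 had the larger line difference in control medium. Of the 10 negative ones, 9 had the larger line difference in deprived medium. The difference of responses is the line difference in deprived medium minus that in control medium. A large line difference in control or deprived medium was therefore built into the choice of these genes. The classes above were counted only among the 3278 genes, with no share over all genes tested.

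**Figure D2:**
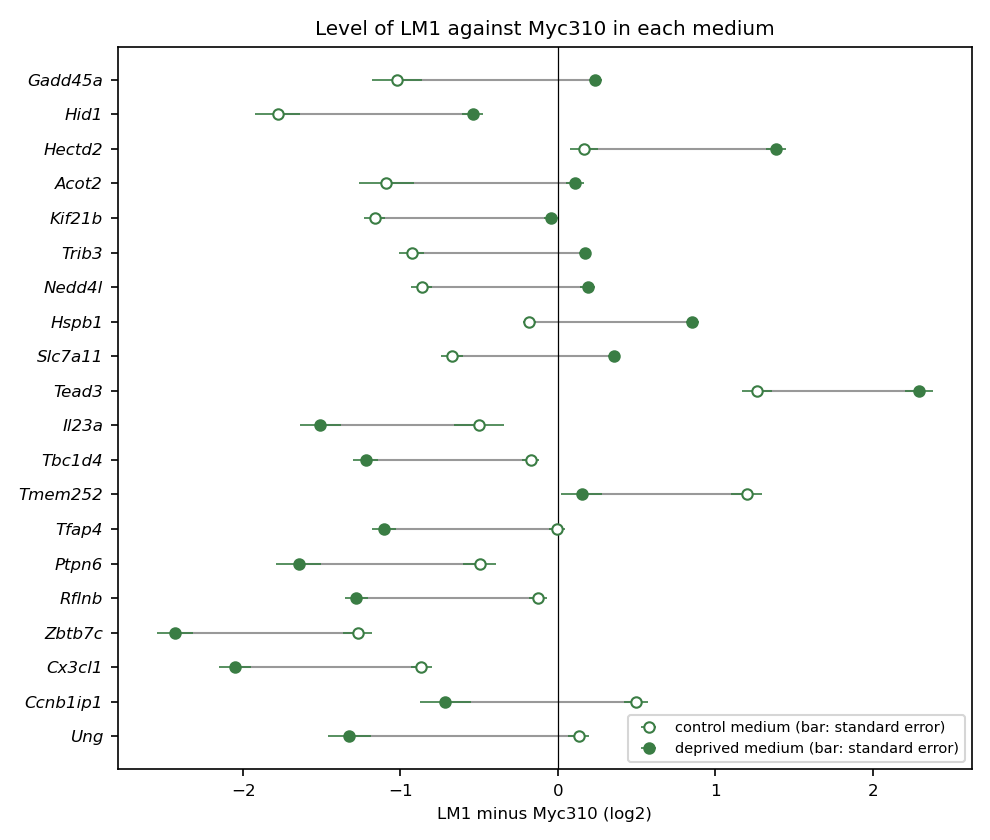
For the 10 genes with the largest positive and the 10 with the largest negative difference of responses, the level of LM1 minus that of Myc310 (log2) is drawn in control medium (open points) and deprived medium (filled points), with standard errors as bars. Trib3, Gadd45a, Kif21b and Slc7a11 start below 0 in control medium and end near or above it, whereas Tfap4 and Tbc1d4 start near 0 and end below it.

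Trib3 encodes a pseudokinase that ATF4 induces and that restrains ATF4 in turn. Its level was 18.7, 16.7 and 18.4 CPM in the 3 Myc310 control cultures and 8.71, 9.35 and 10.6 CPM in those of LM1. After deprivation it was 288, 275 and 292 CPM in Myc310 and 305, 318 and 323 CPM in LM1. The groups did not overlap in either medium, with LM1 lower in control medium and slightly higher in deprived medium. The response was 5.08 in LM1 and 3.98 in Myc310, a difference of 1.10 ± 0.09 (SE, n = 3 cultures per group, adjusted p = 1.2e-10 in edgeR's quasi-likelihood test). Gadd45a, which encodes a stress-induced regulator of growth arrest and DNA repair, had the largest positive difference among the 10 leading genes, which excluded genes of lower level. It stood at 4.34, 6.51 and 5.84 CPM in Myc310 control cultures and at 3.04, 2.66 and 2.58 CPM in LM1 control cultures. In deprived medium it reached 257, 254 and 235 CPM in Myc310 and 278, 276 and 309 CPM in LM1. LM1 was again below Myc310 in control medium and above it in deprived medium, and the difference of responses was 1.26 ± 0.16 (adjusted p = 8.6e-07).

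Slc7a11, the cystine-carrying subunit of xCT, followed the same course. Its level in control medium was 17.4, 16 and 15.6 CPM in Myc310 and 10.7, 9.98 and 10.7 CPM in LM1, and in deprived medium 131, 125 and 125 CPM in Myc310 and 165, 167 and 148 CPM in LM1. The lines did not overlap in either medium, and their order turned over. The difference of responses was 1.03 ± 0.08 (3.98 in LM1 and 2.94 in Myc310, adjusted p = 9.3e-11). Slc3a2, the heavy chain of the same transporter, rose in both lines, from a mean of 219 to 756 CPM in Myc310 and from 194 to 637 CPM in LM1, and its difference was -0.02 ± 0.03 (adjusted p = 0.65).

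For Hspb1, Hectd2 and Tead3 the difference between the lines was larger in deprived than in control medium. Hspb1 encodes the small heat shock protein HSP27, which protects actin and other proteins under oxidative and heat stress. It stood at 122, 112 and 118 CPM in Myc310 control cultures and 118, 116 and 124 CPM in deprived ones, so the 2 media overlapped. In LM1 it went from 103, 105 and 107 CPM to 199, 212 and 224 CPM. The response was 1.05 in LM1 and 0.01 in Myc310, a difference of 1.03 ± 0.06 (adjusted p = 2.6e-13). Hectd2, which encodes a ubiquitin ligase of the HECT family, rose from 6.63, 6.42 and 6.64 CPM to 17.4, 16.1 and 16 CPM in Myc310 and from 7.17, 7.23 and 8.02 CPM to 42.6, 40.8 and 43.7 CPM in LM1. The difference was 1.22 ± 0.11 (adjusted p = 9.0e-10). A gene on the opposite strand overlaps Hectd2. The library kit keeps strand, but the strand setting of the counting is not given in the sources used here. Tead3, a DNA-binding partner of YAP and TAZ, went from a mean of 5.52 to 5.10 CPM in Myc310 and from 13.6 to 24.6 CPM in LM1 (difference 1.03), so it was higher in LM1 in both media.

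The other members of the leading positive group rose in both lines. Kif21b, a kinesin motor, rose from a mean of 27.6 to 111 CPM in Myc310 and from 12.5 to 105 CPM in LM1. Hid1, a protein of secretory granule sorting, rose from 4.68 to 43.2 CPM in Myc310 and from 1.40 to 29.2 CPM in LM1. The mitochondrial acyl-CoA thioesterase Acot2 went from 2.89 to 55.4 CPM in Myc310 and from 1.38 to 58.6 CPM in LM1, and the ubiquitin ligase Nedd4l from 17.2 to 43.6 CPM in Myc310 and from 9.59 to 48.9 CPM in LM1. In each of these genes LM1 was the lower line in control medium, and the differences lay between 1.06 and 1.24.

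**Figure D3:**
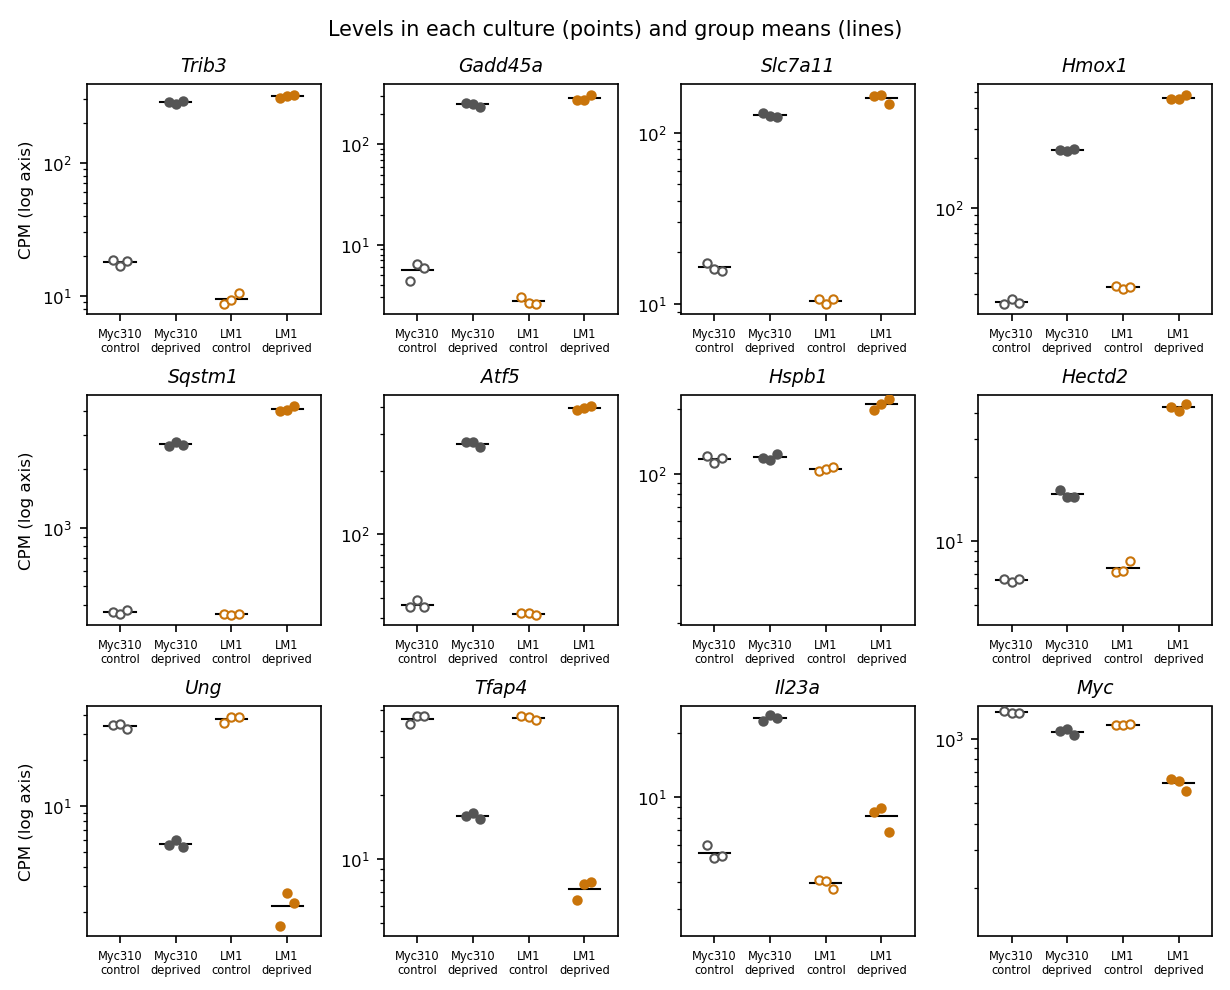
Points are the CPM of single cultures on log axes for 12 genes and horizontal lines are group means, with Myc310 in grey, LM1 in orange, control medium as open and deprived medium as filled points. Trib3, Gadd45a and Slc7a11 were lower in LM1 in control medium and higher after deprivation, Hspb1 passed the threshold in LM1 and not in Myc310, and Ung, Tfap4 and Myc reached lower levels in deprived LM1 cultures.

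The promoters of 5 of these stress genes are shown because each holds a short element known from the ISR or from the heat shock response. RefSeq gives 300 bases for each, from 250 before the annotated start to 50 after it, on the gene's own strand in GRCm38.p6. Capitals mark matches on either strand to TGATGNAA, the core of the C/EBP-ATF response element that ATF4 binds, or, in Hspb1, to GAANNTTC, a pair of heat shock half-sites. The windows are Trib3 at chr2:152344011-152344310 (minus strand), Slc7a11 at chr3:50443564-50443863 (minus strand), Chac1 at chr2:119350992-119351291 (plus strand), Nupr1 at chr7:126625421-126625720 (minus strand) and Hspb1 at chr5:135887669-135887968 (plus strand).
Trib3: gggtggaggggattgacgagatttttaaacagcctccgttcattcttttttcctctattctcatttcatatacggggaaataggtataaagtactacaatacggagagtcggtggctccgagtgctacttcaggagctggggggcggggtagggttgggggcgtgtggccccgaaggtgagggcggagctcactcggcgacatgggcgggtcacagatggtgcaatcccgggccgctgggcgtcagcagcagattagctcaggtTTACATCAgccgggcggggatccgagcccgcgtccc
Slc7a11: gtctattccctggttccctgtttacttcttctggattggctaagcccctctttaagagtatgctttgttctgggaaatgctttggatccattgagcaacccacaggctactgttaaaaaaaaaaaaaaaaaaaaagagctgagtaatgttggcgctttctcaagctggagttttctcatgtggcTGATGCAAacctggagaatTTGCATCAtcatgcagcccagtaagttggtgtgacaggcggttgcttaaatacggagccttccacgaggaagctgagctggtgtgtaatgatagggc
Chac1: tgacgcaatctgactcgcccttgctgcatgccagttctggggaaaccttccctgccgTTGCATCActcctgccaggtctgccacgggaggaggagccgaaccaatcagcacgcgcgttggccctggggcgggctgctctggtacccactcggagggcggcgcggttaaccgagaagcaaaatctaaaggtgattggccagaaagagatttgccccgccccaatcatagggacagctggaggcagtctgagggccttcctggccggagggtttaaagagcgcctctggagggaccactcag
Nupr1: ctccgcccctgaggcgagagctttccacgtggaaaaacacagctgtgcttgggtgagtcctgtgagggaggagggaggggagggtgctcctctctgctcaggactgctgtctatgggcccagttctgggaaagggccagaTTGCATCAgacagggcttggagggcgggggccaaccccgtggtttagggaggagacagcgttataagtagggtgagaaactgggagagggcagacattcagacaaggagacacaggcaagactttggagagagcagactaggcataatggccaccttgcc
Hspb1: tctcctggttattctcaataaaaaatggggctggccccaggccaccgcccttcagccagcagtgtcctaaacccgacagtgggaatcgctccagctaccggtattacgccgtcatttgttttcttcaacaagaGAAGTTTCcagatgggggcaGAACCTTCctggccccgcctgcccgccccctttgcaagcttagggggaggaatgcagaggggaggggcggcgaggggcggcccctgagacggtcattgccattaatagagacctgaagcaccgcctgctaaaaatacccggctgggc

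The match lies 15 bases after the start in Trib3, 66 and 47 bases before it in Slc7a11, 193 before it in Chac1 and 110 before it in Nupr1, and the 2 matches of Hspb1 lie 117 and 97 bases before its start. TGATGNAA is present in 2.68% of the 9648 tested genes with a promoter in the RefSeq table. It was found in 7 of 24 such genes of the ISR list (29.2%), in 5 of 16 cytosolic aminoacyl-tRNA synthetases (31.2%) and in 60 of 674 genes that rose in both lines with a mean over 2-fold (8.9%). Within this last group the share was 9% (28 of 311) for genes that rose more in LM1 past the threshold and 8.82% (32 of 363) for the others. GAANNTTC was found in 6.7% of tested genes and in 11 of 18 heat shock genes (61.1%). These matches are a description of sequence and not of binding.

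The ISR list holds the transcription factors, kinases and feedback genes of that response. Of its 26 tested genes, 13 (50%) had a higher and 2 a lower response in LM1, against 14.5% and 9.96% of all genes. The lists below are set beside the same shares. Rising genes as a class exceeded 14.5%, since 1376 of all 3960 genes that rose in both lines rose more in LM1 past the threshold. In the ISR list 22 members rose in LM1 and 20 in Myc310. Whether this list, or any below whose members mostly rose, exceeded other rising genes was not tested. The median difference of the ISR list was 0.34, against 0.02 over all genes, with a median response of 2.31 in LM1 and 2.19 in Myc310. With the 3 genes that had a group at the floor set to their bounds, the median was 0.32. Atf4 itself rose from 150, 136 and 144 CPM to 644, 638 and 652 CPM in Myc310 and from 135, 142 and 140 CPM to 761, 789 and 783 CPM in LM1. The control groups overlapped and the deprived groups did not, and the difference was 0.36 ± 0.04 (adjusted p = 4.0e-08). Atf5, a related factor under the same translational control, rose from 45.3, 48.8 and 45.0 CPM to 272, 274 and 260 CPM in Myc310 and from 42.4, 42.2 and 41.4 CPM to 388, 396 and 405 CPM in LM1, a difference of 0.75 ± 0.05 (adjusted p = 9.7e-13). Atf5 overlaps other genes in the annotation. The stress cofactor Nupr1 rose from a mean of 23.6 to 248 CPM in Myc310 and from 21.8 to 324 CPM in LM1 (0.54), and the C/EBP factors Cebpb (0.41) and Cebpg (0.38), partners of ATF4, also had the larger rise in LM1. Eif2ak3, the kinase PERK of the endoplasmic reticulum, rose in LM1 from 21.3 to 28.5 CPM and did not change past the threshold in Myc310 (28.1 and 26.8 CPM).

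For several known ISR targets the difference missed the threshold. Ddit3, which encodes CHOP, rose from 2.34 to 57.6 CPM in Myc310 and from 2.00 to 59.0 CPM in LM1 (difference 0.30 ± 0.16, adjusted p = 0.21), and Sesn2, a leucine sensor that restrains mTORC1, rose from 38.4 to 205 CPM and from 46.5 to 223 CPM (-0.11 ± 0.06, adjusted p = 0.20). The difference of Sesn2 passed with upper-quartile scaling and without LM1 deprived culture 2. The 2 genes with a lower response in LM1 were Jdp2, a repressor of the AP-1 family, and Eif2ak4, which encodes GCN2. Jdp2 rose from 22.8 to 107 CPM in Myc310 and from 33.1 to 121 CPM in LM1 (-0.31). Eif2ak4 fell from 33.2 to 23.3 CPM in Myc310 and from 34.7 to 18.9 CPM in LM1 (-0.31). Atf3 was induced from 13, 9 and 11 counts to 2820, 2747 and 2784 counts in Myc310 and from 5, 12 and 4 to 3376, 3751 and 3728 counts in LM1, and its difference of 0.95 ± 0.36 missed the threshold (adjusted p = 0.061), although it passed without LM1 control culture 2. The secreted factors Fgf21 and Gdf15 had no count in any control culture, and in deprived medium Fgf21 had 110, 101 and 76 counts in Myc310 and 124, 128 and 101 in LM1, and Gdf15 had 8, 10 and 8 counts in Myc310 and 16, 22 and 24 in LM1.

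Vldlr, a lipoprotein receptor on the same list, separated the lines in level rather than in direction. It rose in Myc310 from a mean of 14.1 to 93.7 CPM. In LM1 control cultures it had 2, 0 and 2 counts, at the floor, and in deprived ones 112, 100 and 84 counts, a rise of at least 31.6-fold when the floor of 3 counts per library is used. Myc310 exceeded LM1 by at least 98.2-fold in control medium and by 20.6-fold in deprived medium.

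Among genes of cysteine and glutathione metabolism, Slc7a11 and Chac1 had the largest differences past the threshold. Of 41 tested genes, 9 (22%) had a higher and 3 (7.32%) a lower response in LM1, against the 14.5% and 9.96% of all genes, and the median difference was 0.08. Chac1, which degrades glutathione and thereby releases cysteinylglycine, rose from 1.62, 1.41 and 1.96 CPM to 93.3, 94.5 and 93.6 CPM in Myc310 and from 1.60, 1.26 and 1.27 CPM to 111, 117 and 114 CPM in LM1. The difference was 0.60 ± 0.20 (adjusted p = 0.027), and it missed the threshold with limma's voom and without any one of 4 control cultures (Myc310 culture 1 or 3, LM1 culture 2 or 3). Cth, the transsulphuration enzyme that makes cysteine from cystathionine, rose from 32.2, 28.2 and 31.0 CPM to 252, 241 and 252 CPM in Myc310 and from 24.7, 25.2 and 24.0 CPM to 232, 242 and 247 CPM in LM1. Deprived cultures of the lines overlapped, and the difference was 0.31 ± 0.07 (adjusted p = 0.0011). Cbs, the enzyme of the step before it, had between 0 and 16 counts per library in these groups.

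The enzymes that build glutathione changed by little in either line. Gclc and Gclm, the subunits of the rate-limiting ligase, fell slightly in both lines, Gclc from a mean of 86.8 to 71.9 CPM in Myc310 and from 86.8 to 74.0 CPM in LM1, and their differences were 0.09 ± 0.05 and 0.03 ± 0.05 (adjusted p = 0.24 and 0.78). Gss, glutathione synthetase, and Gpx4, the peroxidase that removes lipid hydroperoxides, had differences of 0.05 ± 0.07 and 0.02 ± 0.04 (adjusted p = 0.66 and 0.86). Thioredoxin reductase, encoded by Txnrd1, stayed at 283 CPM in Myc310 in both media and rose in LM1 from 294 to 348 CPM (0.29 ± 0.04, adjusted p = 2.8e-06). The lower responses included those of Gsr, glutathione reductase (-0.20), and Mat2a, which makes S-adenosylmethionine (-0.21), and both genes fell in both lines.

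In amino acid handling beyond cysteine, higher responses in LM1 outnumbered lower ones. Of 20 tested genes of amino acid synthesis and one-carbon metabolism 10 (50%) had a higher and 2 a lower response (14.5% and 9.96% over all genes), and of 23 cytosolic aminoacyl-tRNA synthetases 13 (56.5%) had a higher and 2 a lower one, with median differences of 0.13 and 0.15. In the first list 12 members rose in each line, and in the second 16 rose in LM1 and 17 in Myc310. Neither list was tested against other rising genes. With single cultures left out, 0 to 2 genes of the first list were lower (0 without LM1 deprived culture 3, and 1 without Myc310 control culture 2, Myc310 deprived culture 2 or 3, LM1 control culture 1 or 3, or LM1 deprived culture 1 or 2), and 1 or 2 of the second (1 without LM1 control culture 3 or LM1 deprived culture 3). Gpt2, the mitochondrial alanine transaminase, rose from 26.1 to 321 CPM in Myc310 and from 19.7 to 348 CPM in LM1 (0.57 ± 0.06, adjusted p = 8.0e-09). The alanyl-tRNA synthetase gene Aars rose from a mean of 207 to 841 CPM in Myc310 and from 221 to 1149 CPM in LM1 (0.41 ± 0.04, adjusted p = 1.7e-09), and Tars, for threonine, from 122 to 462 CPM and from 120 to 551 CPM (0.33). Glul, glutamine synthetase, fell in both lines and less in LM1 (0.42). Qars, for glutamine, fell in both lines and more in LM1 (-0.23).

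Of 20 tested amino acid transporters, 6 (30%) had a higher and 2 a lower response, with a median of 0.12 (1 lower without Myc310 deprived culture 3, LM1 control culture 2 or LM1 deprived culture 3). The glycine transporter Slc6a9 rose from 51.3 to 339 CPM in Myc310 and from 37.5 to 332 CPM in LM1 (0.47 ± 0.05, adjusted p = 2.6e-08), and the lines differed past the threshold in control medium only. Slc43a2, a carrier of large neutral amino acids, fell from 43.2 to 30.3 CPM in Myc310 and from 33.0 to 12.1 CPM in LM1 (-0.89 ± 0.11, adjusted p = 2.5e-07).

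Hmox1 and Sqstm1, which oxidants induce through NRF2, rose further in LM1. Hmox1, heme oxygenase, which degrades heme to biliverdin, iron and carbon monoxide, rose from 26.1, 28.1 and 26.4 CPM to 222, 220 and 225 CPM in Myc310 and from 33.7, 32.3 and 33.2 CPM to 456, 455 and 481 CPM in LM1. LM1 was above Myc310 in both media without overlap, and the difference of responses was 0.81 ± 0.05 (adjusted p = 5.2e-12). Sqstm1 encodes p62, an autophagy receptor that also frees NRF2 from KEAP1. It rose from 368, 357 and 374 CPM to 2634, 2769 and 2674 CPM in Myc310 and from 358, 354 and 356 CPM to 4019, 4076 and 4259 CPM in LM1 (0.70 ± 0.04, adjusted p = 4.1e-14). The lines overlapped in control medium and not in deprived medium.

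The lists to which these genes belong were mixed. Of 33 tested NRF2 targets, a list that holds Slc7a11, Hmox1 and Sqstm1, 13 (39.4%) had a higher and 4 (12.1%) a lower response in LM1, against 14.5% and 9.96% of all genes, with a median of 0.10. The list as a whole did not rise: 12 members rose and 17 fell in LM1, and 11 rose and 18 fell in Myc310. Of 30 genes of iron handling and ferroptosis, 12 were higher and 7 lower, and 7 were higher with upper-quartile scaling, without Myc310 deprived culture 3 or without LM1 deprived culture 2. Lower members included Steap3, the endosomal ferrireductase (-0.42), and Mboat1, a phospholipid acyltransferase (-0.63). Of 44 genes of lysosome and autophagy 10 were higher and 3 lower, with a median of 0.03, and with upper-quartile scaling 8 were higher and 6 lower, with a median of -0.02.

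Of 23 heat shock genes, 13 (56.5%) had a higher and 3 (13%) a lower response in LM1, against 14.5% and 9.96% of all genes, with a median difference of 0.12, and 9 were higher and 3 lower with upper-quartile scaling. The list fell more often than it rose: 14 members fell and 9 rose in LM1, and 16 fell and 4 rose in Myc310. Besides Hspb1, the co-chaperone Dnajb4 rose from 38.3 to 97.2 CPM in Myc310 and from 38.4 to 175 CPM in LM1 (0.89 ± 0.07, adjusted p = 4.5e-11). The mitochondrial chaperonins Hspd1 (-0.17) and Hspe1 (-0.14) fell in both lines and more in LM1. Of 26 genes for chaperones of the endoplasmic reticulum and targets of XBP1, 9 were higher and 1 lower (2 lower with upper-quartile scaling), and Hspa5, the chaperone BiP, rose from a mean of 791 to 1760 CPM in Myc310 and from 918 to 2758 CPM in LM1 (0.48 ± 0.03, adjusted p = 9.7e-13). Herpud1, a gene of endoplasmic reticulum-associated degradation, had a difference of 0.54.

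Of 37 tested immediate early genes and AP-1 factors, 28 rose and 5 fell in LM1, and 28 rose and 3 fell in Myc310. A higher response in LM1 was found for 20 (54.1%) and a lower one for 4 (10.8%), against 14.5% and 9.96% of all genes, with a median difference of 0.18 (16 higher and 5 lower with upper-quartile scaling, and 2 lower without LM1 deprived culture 3). Ier5, a regulator of heat shock factor 1, rose from 90.8 to 180 CPM in Myc310 and from 70.7 to 229 CPM in LM1 (0.76 ± 0.07, adjusted p = 1.9e-09). Dusp10, a phosphatase of the stress kinases JNK and p38, had a difference of 0.82 and Spry4, an inhibitor of ERK signalling, one of -0.40. Plk3, a stress-induced polo-like kinase on the list of p53 targets and death genes, rose from 31.2 to 323 CPM in Myc310 and from 30.8 to 552 CPM in LM1 (0.84 ± 0.07, adjusted p = 1.9e-10), and Plk2 had a difference of 0.68. On the same list the antiapoptotic Bcl2 (-0.42) and its proapoptotic antagonist Bcl2l11, which encodes BIM (-0.47), both had the lower response in LM1. In all, 8 of its 27 members were higher and 5 lower, but 6 were higher and 10 lower with upper-quartile scaling, where more members were thus lower.

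Of 27 NF-kB targets and chemokines, 5 (18.5%) were higher and 2 (7.41%) lower, against 14.5% and 9.96% of all genes, with a median of -0.13, and 3 were higher without Myc310 control culture 3. Lower members numbered 3 with upper-quartile scaling and with DESeq2, 0 without Myc310 control culture 1, LM1 control culture 3 or LM1 deprived culture 2, and 1 without Myc310 control culture 2, Myc310 deprived culture 2 or 3, or LM1 deprived culture 1. Il11, a cytokine of the IL-6 family, had 9, 7 and 17 counts in Myc310 control cultures and 187, 159 and 171 in deprived ones, and 9, 16 and 13 counts in LM1 control cultures and 670, 719 and 730 in deprived ones. Deprived LM1 cultures stood well above deprived Myc310 cultures (32.5 and 7.80 CPM), and the difference of responses was 1.76 ± 0.43 (adjusted p = 0.0024). It missed the threshold without Myc310 control culture 3. Ptgs2, which encodes cyclooxygenase 2, rose from 11.3 to 136 CPM in Myc310 and from 19.7 to 375 CPM in LM1 (0.71 ± 0.09, adjusted p = 3.9e-07). Of 13 metallothionein and zinc transporter genes 5 were higher and 0 lower, led by Mt1, which rose from 188 to 466 CPM in Myc310 and from 169 to 558 CPM in LM1 (0.46). The count of lower members was 0 with DESeq2 and voom as well, upper-quartile scaling gave 3 higher and 1 lower, and 1 had a negative difference at an unadjusted p under 0.05. Without Myc310 control culture 2, Myc310 deprived culture 1, or LM1 deprived culture 1 or 3, 3 members were higher.

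**Figure D4:**
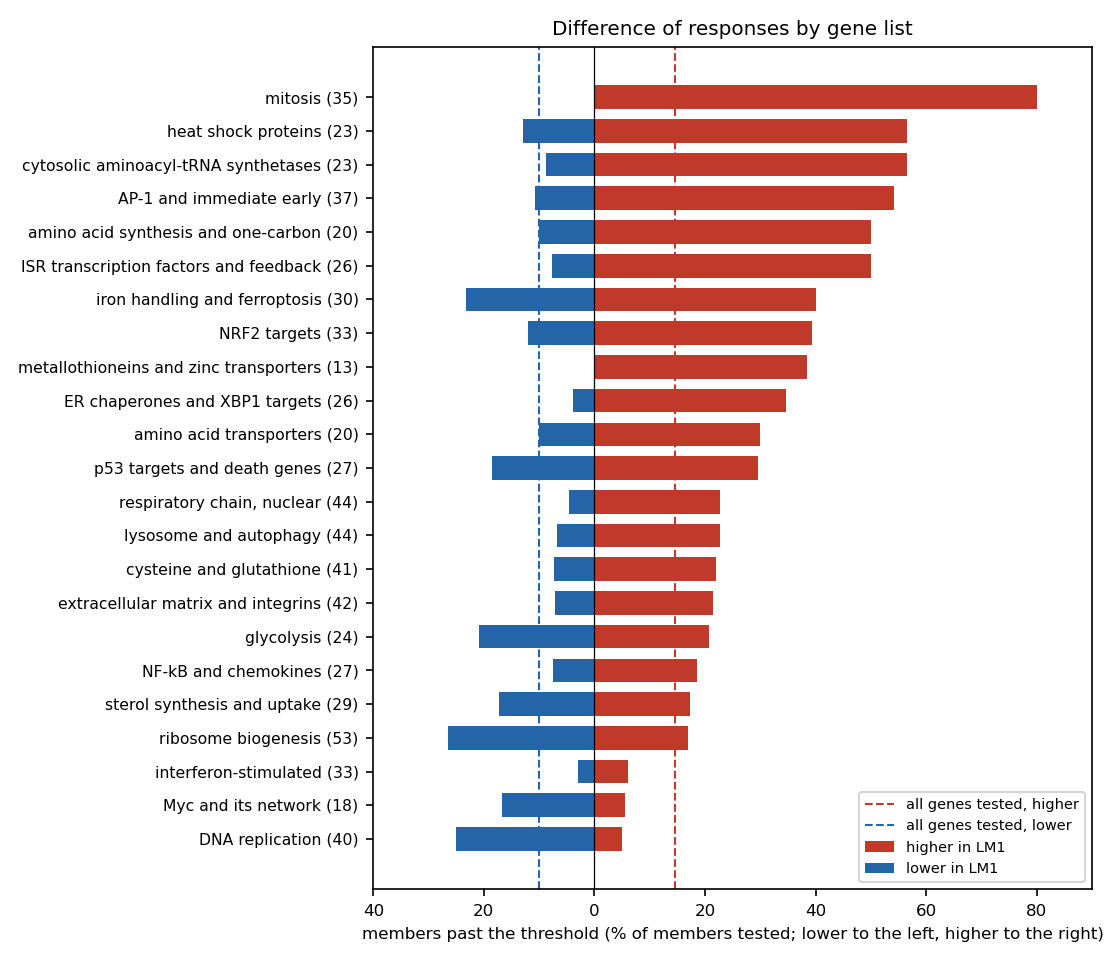
Bars give the percentage of tested members of each gene list whose difference of responses passed the threshold, higher in LM1 to the right and lower to the left, with the number of tested members in brackets; dashed lines mark 14.5% and 9.96%, the shares over all genes tested. Mitosis genes lie furthest to the right, with 80% higher, and DNA replication genes show 5% higher and 25% lower.

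Genes that fell further in LM1 were led by Ung, uracil DNA glycosylase, which removes uracil from DNA. It went from 34.3, 34.5 and 32.1 CPM to 5.57, 6.02 and 5.36 CPM in Myc310 and from 35.3, 38.6 and 38.6 CPM to 1.63, 2.69 and 2.30 CPM in LM1. Deprived LM1 cultures lay below all deprived Myc310 cultures, and the difference was -1.46 ± 0.15 (-4.05 in LM1 and -2.59 in Myc310, adjusted p = 2.2e-08). Tfap4, a Myc-induced transcription factor, went from 43.2, 47.1 and 46.7 CPM to 15.9, 16.5 and 15.3 CPM in Myc310 and from 46.9, 46.7 and 45.0 CPM to 6.41, 7.63 and 7.77 CPM in LM1. The lines overlapped in control medium and not in deprived medium, and the difference was -1.10 ± 0.09 (adjusted p = 5.5e-10).

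The other leading negative genes covered varied functions. Ccnb1ip1, a ubiquitin ligase that acts on cyclin B, fell from 32.3 to 3.52 CPM in Myc310 and from 46.4 to 2.10 CPM in LM1. Tbc1d4, the Rab GTPase-activating protein AS160 of glucose transporter traffic, fell from 56.0 to 19.9 CPM and from 50.4 to 8.40 CPM. The chemokine Cx3cl1 fell from 29.1 to 10.6 CPM in Myc310 and from 16.2 to 2.5 CPM in LM1, and Ptpn6, which encodes the phosphatase SHP-1, from 20.7 to 9.61 CPM and from 14.9 to 3.01 CPM. Rflnb, Zbtb7c and Tmem252 likewise fell in both lines and further in LM1, and the differences of these 7 genes lay between -1.21 and -1.05. Il23a, the specific subunit of interleukin 23, was alone among the 10 in rising. It went from 5.96, 5.19 and 5.33 CPM to 22.9, 24.3 and 23.5 CPM in Myc310 and from 4.07, 4.06 and 3.71 CPM to 8.55, 8.95 and 6.90 CPM in LM1 (-1.01 ± 0.20, adjusted p = 4.2e-04).

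Myc fell in both lines and further in LM1. Its level was 1356, 1325 and 1323 CPM in Myc310 control cultures and 1092, 1110 and 1037 CPM in deprived ones, and 1159, 1158 and 1177 CPM in LM1 control cultures and 649, 636 and 568 CPM in deprived ones. The 4 groups did not overlap, and the difference was -0.56 ± 0.05 (adjusted p = 5.7e-10). The count table does not separate the transgene from the endogenous gene. Of 18 genes of the Myc network 1 was higher and 3 lower (1 lower without Myc310 deprived culture 1 or 3, or without LM1 control culture 1 or LM1 deprived culture 1, and 2 higher without Myc310 deprived culture 1), and the higher one in the fit with all cultures was Mxd4 (0.36), an antagonist of Myc that competes for its partner MAX. Of 53 genes of ribosome biogenesis, many of them known Myc targets, 9 were higher and 14 lower (2 higher and 18 lower with upper-quartile scaling, and 4 or 5 higher without Myc310 deprived culture 1 or Myc310 control culture 1), with examples at 0.23 for Nop58, a component of box C/D ribonucleoproteins, and -0.35 for Rrp1b, a nucleolar processing factor.

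Mitotic genes had the largest share of higher responses among the 23 lists, under every alternative run. Of 35 tested members 28 (80%, against 14.5% of all genes) had a higher response in LM1 and 0 a lower one in edgeR's test, as with DESeq2 and voom, with a median difference of 0.25. At an unadjusted p under 0.05, 1 had a lower response. With upper-quartile scaling 23 were higher and 1 lower, and with each culture left out in turn 25 to 28 were higher and 0 lower. In LM1 23 members rose and 7 fell, and in Myc310 19 rose and 13 fell. The median line difference of the list was -0.04 in control medium and 0.25 in deprived medium. Prc1, which bundles microtubules of the central spindle, rose from 171, 168 and 168 CPM to 329, 333 and 349 CPM in Myc310 and from 177, 175 and 170 CPM to 476, 479 and 492 CPM in LM1. Control groups overlapped and deprived groups did not, and the difference was 0.53 ± 0.04 (adjusted p = 3.5e-11). Aurka, a spindle kinase, rose from 105 to 168 CPM in Myc310 and from 104 to 223 CPM in LM1 (0.47 ± 0.05, adjusted p = 6.2e-09).

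Of 40 tested DNA replication genes, 33 fell and 4 rose in LM1, and 34 fell and 5 rose in Myc310. The difference of responses was higher for 2 (5%) and lower for 10 (25%), against 14.5% and 9.96% of all genes, with a median of -0.04. Of all 3942 genes that fell in both lines, 978 fell more in LM1 past the threshold, a share near the 25% of this list. Ccne1, cyclin E1, which drives entry into S phase, fell from 60.4 to 17.3 CPM in Myc310 and from 75.5 to 15.8 CPM in LM1 (-0.40 ± 0.07, adjusted p = 7.5e-05), and its transcription factor E2f1 fell from 45.9 to 23.2 CPM and from 54.1 to 20.6 CPM (-0.36). The 2 members with a higher response, Fen1 (0.28), a flap endonuclease, and Rrm1 (0.24), the large subunit of ribonucleotide reductase, fell in both lines and less in LM1.

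**Figure D5:**
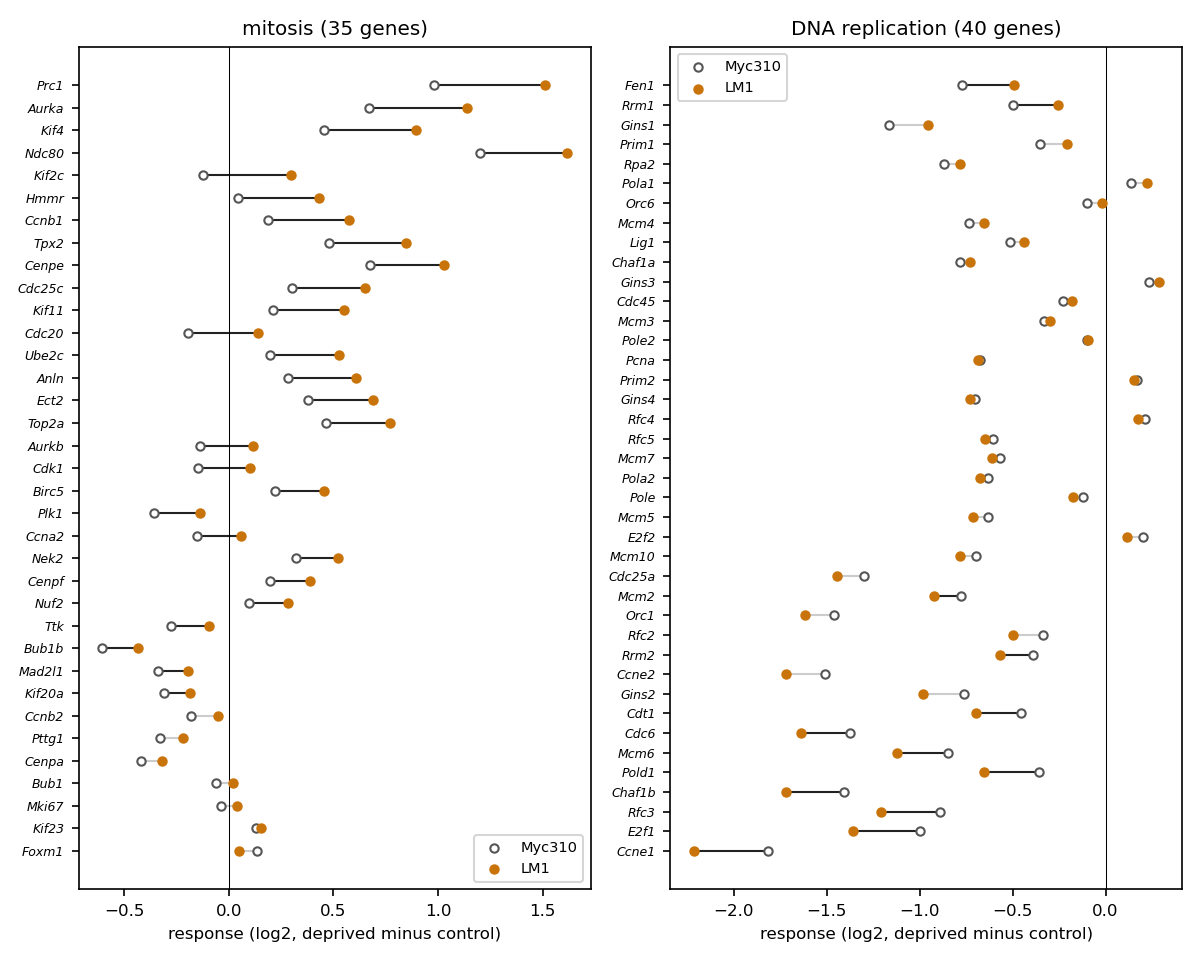
Responses (log2, deprived minus control) of the 35 tested mitosis genes and the 40 tested DNA replication genes, with Myc310 as open and LM1 as filled points; a black connecting line marks a difference of responses past the threshold and a grey line one that was not. In the mitosis panel 28 black lines run towards higher values in LM1, and in the DNA replication panel 10 run towards lower values and 2 towards higher ones.

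In the lists of lipid, energy and interferon genes, higher and lower responses were both found. Of 29 genes of sterol synthesis and uptake 5 were higher and 5 lower (17.2% each, against 14.5% and 9.96% of all genes). Within the one pathway Msmo1 (0.42) rose in both lines and more in LM1, whereas Hsd17b7 fell from 18.0 to 12.7 CPM in Myc310 and from 32.1 to 12.1 CPM in LM1 (-0.86 ± 0.10, adjusted p = 1.3e-07). Of 24 glycolysis genes 5 were higher and 5 lower (1 and 6 with upper-quartile scaling, and 3 higher without Myc310 control culture 2). The higher members included Pkm and Pgk1 in the fit with all cultures. Among the lower ones were Pdk1, an inhibitor of pyruvate dehydrogenase, at -0.44 and Slc16a3, the lactate exporter MCT4, at -0.42. Of 44 nuclear genes of the respiratory chain 10 were higher and 2 lower (3 and 2 with upper-quartile scaling, and 5 to 12 higher with single cultures left out). Of 33 interferon-stimulated genes 2 were higher and 1 lower, and with single cultures left out 1 to 3 were higher and 0 to 2 lower.

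Of 42 genes of the extracellular matrix and integrins 9 (21.4%) were higher and 3 (7.14%) lower, against 14.5% and 9.96% of all genes, with a median of 0.07. Fn1, fibronectin, had 16, 12 and 13 counts in Myc310 control cultures and 39, 49 and 42 in deprived ones, and 110, 119 and 153 counts in LM1 control cultures and 913, 1017 and 1005 in deprived ones. It was higher in LM1 in both media, and the difference of responses was 1.21 ± 0.32 (adjusted p = 0.0050). The fibroblast marker list, which was also higher in LM1, summed to between 15.9 and 18.1 CPM in LM1 control cultures and between 10.6 and 11.5 CPM in deprived ones. Col3a1 carried most of this sum in LM1, and Col1a1, another of its members, went from 4, 5 and 7 to 18, 25 and 26 counts in LM1 and from 3, 1 and 6 to 17, 18 and 24 counts in Myc310. The part of these markers in the Fn1 result was not tested. The integrin gene Itgb5 had a lower response in LM1 (-0.31).

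Genes that moved in opposite directions were few, 71 among the 3278. Pmp22, a membrane protein of myelin and epithelial junctions, rose in Myc310 from 54.3, 55.4 and 55.2 CPM to 68.4, 65.6 and 68.7 CPM and fell in LM1 from 28.9, 29.9 and 28.8 CPM to 16.7, 18.2 and 19.7 CPM. The difference was -0.93 ± 0.07 (adjusted p = 3.5e-11). Crybg3, a large protein with crystallin-like domains, fell in Myc310 from 22.8, 25.1 and 23.9 CPM to 18.1, 20.8 and 21 CPM and rose in LM1 from 31.4, 31.4 and 34.5 CPM to 51.2, 49.3 and 53.8 CPM (0.97). Mlph, melanophilin of organelle transport, also rose in Myc310 and fell in LM1 (-0.70), as did Phf7 (-0.57) and Tmem86a (-0.59).

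The same genes can be set beside LM1-LM, isolated from lungs after LM1 cells had been injected, and beside LM2 and LM3, further lung isolates of Myc310 that were sequenced in control medium. LM1-LM shares no library with LM1 but is compared with its own 3 control and 3 deprived cultures in the same model. For Trib3 the response was 4.98 in LM1-LM, beside 5.08 in LM1 and 3.98 in Myc310. For Slc7a11 it was 3.93, beside 3.98 and 2.94, and for Hspb1 1.04, beside 1.05 and 0.01. For Gadd45a it was 7.75, beside 6.74 and 5.48. Myc fell by 1.26 in LM1-LM, by 0.88 in LM1 and by 0.32 in Myc310. The difference between LM1-LM and either line was not tested. In control medium the mean level of Trib3 was 18.4 CPM in LM2 and 15.3 CPM in LM3, beside 18.7, 16.7 and 18.4 CPM in Myc310 and 8.71, 9.35 and 10.6 CPM in LM1. Slc7a11 stood at 9.76 CPM in LM2 and 10.4 CPM in LM3. Gadd45a stood at 6.32 and 4 CPM, Kif21b at 33.2 and 28.6 CPM and Hspb1 at 159 and 166 CPM in LM2 and LM3.

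By position, in GRCm38 with the GENCODE release 21 annotation, Trib3 lies at chr2:152337422-152344032, Slc7a11 at chr3:49892526-50443614, Hspb1 at chr5:135887919-135889563, Gadd45a at chr6:67035096-67037457, Ung at chr5:114130386-114139323, Tfap4 at chr16:4544661-4559854, Myc at chr15:61985391-61990374 and Pmp22 at chr11:63128982-63159547. All are protein-coding genes. Slc7a11 overlaps 2 predicted genes on its own strand, and an antisense gene overlaps Gadd45a, so reads of these pairs may not be fully separated. Ccnb1ip1 overlaps the noncoding RNA gene Rpph1 on its own strand, and other genes named here also overlap annotated genes.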

How the data were processed

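RNA was measured in 45 libraries, of which 12 enter this comparison. The authors aligned reads with STAR and quantified genes with RSEM, and the deposited table holds whole-number counts for 28454 genes without normalization; 1438 had no count. The labels name GRCm38. Counts were analysed in R 4.3.3 with edgeR 4.0.16. One model with 8 groups held the 24 libraries of the 4 lines in both media, after TMM scaling and filterByExpr, and the difference of responses was a contrast in it. CPM used TMM over 45 libraries, and logarithms a prior count of 2.

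The members and gene lists were chosen with earlier results of these data known. The 23 pathway lists hold 734 genes, of which 688 were tested, 45 fell below the filter on low counts and 1 was not matched and is not analysed here. Lists share members. Named genes were the 10 largest positive and 10 largest negative differences that passed the test, had a log2 CPM averaging 3 or more and responses that did not overlap, up to 2 in each direction per list, members of the ISR and cysteine lists, 5 genes with opposite responses, and Myc. Predicted genes were counted and not named. A group with 3 counts or fewer in each library was treated as at the floor.

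On simulated counts of 13271 genes, the test of the difference of responses recovered 51 of 100 genes changed by 0.5 and 76 of 100 changed by 1 (log2), with 8 unchanged genes called. Alternatives were RLE and upper-quartile scaling, no filter, at least 10 counts per library, DESeq2 1.42.0, limma 3.58.1 voom, only the 12 libraries, equal depth, the replicate number as a block, and each culture left out.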

Additional observations from a re-analysis of the deposited data

Results flagged for a closer look

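The responses of the lines differed past the adjusted threshold for 3278 genes in edgeR's interaction test, 3 cultures per group. Among the leading genes the log2 difference of responses, LM1 minus Myc310, was positive for Gadd45a (1.26), Hid1 (1.24), Hectd2 (1.22), Acot2 (1.20), Kif21b (1.12), Trib3 (1.10), Nedd4l (1.06), Hspb1 (1.03), Slc7a11 (1.03) and Tead3 (1.03). It was negative for Ung (-1.46), Ccnb1ip1 (-1.21), Cx3cl1 (-1.19), Zbtb7c (-1.16), Rflnb (-1.15), Ptpn6 (-1.15), Tfap4 (-1.10), Tmem252 (-1.05), Tbc1d4 (-1.05) and Il23a (-1.01). Of the genes that changed in opposite directions in the lines, Crybg3 had a difference of 0.97, Pmp22 of -0.93, Mlph of -0.70, Tmem86a of -0.59 and Phf7 of -0.57. Single cultures far from their group were not sought, since each group holds 3 cultures.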

How the results depend on the processing

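The count of genes with a difference of responses ranged from 3038 (DESeq2) to 3345 (only the 12 libraries) over the settings that kept all cultures, and from 2796 to 3024 with single cultures left out. Genes over 2-fold numbered 53 with at least 10 counts in every library, where 10704 genes were tested, against 131, and 116 to 143 with single cultures left out. Genes higher in LM1 were 59.3% of those past the threshold, and 42.7% with upper-quartile scaling. The share of genes that rose over 2-fold and rose more in LM1 was 76% to 80.7% with single cultures left out, and of those that fell, 84.2% to 88.3% fell more. With the replicate number as a block, 3256 genes passed. Same-numbered cultures had correlations of deviations between -0.155 and 0.117, with a median of 0.029. Cultures with other numbers had correlations between -0.104 and 0.1035, with a median of -0.015. These ranges overlapped and lay near 0, so the numbers were not read as pairs, although 7 of 12 correlated best with their own number. Differences of Gclm and Gpx4 lay near 0 and changed sign: Gclm was -0.0189 with upper-quartile scaling and -0.000404 to 0.0464 with cultures left out. Gpx4 was -0.00197 with RLE, -0.0307 with upper-quartile scaling, -0.000985 with at least 10 counts, -0.00189 with DESeq2 and -0.0258 to 0.033 with cultures left out. The cause was not tested. Of the genes with values in the text, the other changes of call are given beside them. Control counts were at the floor for Vldlr in LM1 and for Fgf21 and Gdf15 in both lines, which limits their folds to bounds or counts.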
